A study of Mus musculus with 227 samples.

Results

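Ursodiol was 1 of 218 drugs tested singly in a screen of mouse primary cerebrocortical cultures, and its data consist of 1 library among the 218 drug libraries and 9 vehicle libraries of that screen. The library was found by the agent named in its label, and it was compared with the other 31 libraries that carry the same sequencing run code, namely 29 other drugs and Vehicles 6 and 7, and with all 9 vehicle libraries of the screen. The cultures came from the cortex of F1 embryos of an FVB/N by C3B6F1 cross at embryonic day 16.5, were grown for 21 days in vitro and were treated for 8 h. Vehicle was 0.2% DMSO, each drug had a single library, and no dose is given in the sources used here. No genotype or transgene distinguished the groups, so the agent, the run code and the further numbers in the library labels were the labelled differences between the libraries described here.

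The Ursodiol library was selected on an earlier result of these data, its large number of genes called against its run. The counts of called genes and the gene values of the run comparison are therefore the values that chose it. They are given as a description, without p-values for single genes.

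Ursodiol, or ursodeoxycholic acid, is a secondary bile acid used in medicine for cholestatic liver disease and gallstones. Bile acids act through the nuclear receptor FXR and the membrane receptor TGR5, and the liver makes them from cholesterol. Cortical cultures at this stage are mixtures of excitatory and inhibitory neurons, astrocytes and cells of the oligodendrocyte lineage. A bulk library reports the summed RNA of these cells, so fewer cells of a type and less RNA per cell cannot be told apart.

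The Ursodiol library held 31.5 M counts, and the other 31 libraries of the run held 22.02 M to 65.2 M. Mitochondrial genes took 3.78% of its counts, within the 3.07 to 3.95% of the others. Genes for ribosomal proteins took 0.286%, above the 0.241 to 0.273% of the others. Among RNAs read as signs of RNA quality, the nuclear RNAs Malat1 (4155 CPM, the count scaled to library size, against 1226 to 3742 CPM) and Neat1 (36.4 CPM against 5.105 to 32.3 CPM) lay above all others and did not pass the test used below, and their part in the results was not tested. The labels divide the run by a second number from 1 to 8. Ursodiol carries number 4, shared with Trimipramine Maleate, Ziprasidone and Chlorpropamide. On the combined markers of fibroblasts and mural cells the run fell into separate ranges by this number. The score of these markers, a mean log2 CPM set to 0 at the median of the other 31, was -0.15 to 0.42 in the 19 other libraries of numbers 1 to 5 and -0.82 to -0.54 in the 12 libraries of numbers 6 to 8. Vehicle 6 lay in the former range and Vehicle 7 in the latter. Scored alone, the fibroblast markers also separated and the mural markers overlapped between these sets of libraries. Against the 19 others of numbers 1 to 5, values are therefore given separately for the main lists and for some of the genes.

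The promoters of 4 genes are shown because the results below turn on them. Glycam1, which encodes a mucin-like glycoprotein, had the greatest rise by the naming rule. Chil1, which encodes the secreted chitinase-like protein YKL-40, had its highest level in the screen in Ursodiol. Gfap, the intermediate filament gene of astrocytes, and Slc17a7, the vesicular glutamate transporter VGLUT1 of excitatory neurons, are markers of cell types described here. Each sequence is the 250 bases before the RefSeq start on GRCm38.p6, from 5′ to 3′ on the gene's strand. Capitals mark the letters TTCNNNGAA, the core of the element bound by STAT factors, which reads the same on both strands.
Glycam1: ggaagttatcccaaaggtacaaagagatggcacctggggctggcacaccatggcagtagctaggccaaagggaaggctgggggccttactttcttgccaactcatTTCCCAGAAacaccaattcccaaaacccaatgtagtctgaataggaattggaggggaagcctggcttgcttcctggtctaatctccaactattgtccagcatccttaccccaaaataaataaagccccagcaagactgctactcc
Chil1: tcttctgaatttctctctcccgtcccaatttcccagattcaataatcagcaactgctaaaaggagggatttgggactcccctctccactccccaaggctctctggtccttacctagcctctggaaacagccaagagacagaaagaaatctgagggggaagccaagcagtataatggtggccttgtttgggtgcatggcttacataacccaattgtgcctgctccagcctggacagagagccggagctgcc
Gfap: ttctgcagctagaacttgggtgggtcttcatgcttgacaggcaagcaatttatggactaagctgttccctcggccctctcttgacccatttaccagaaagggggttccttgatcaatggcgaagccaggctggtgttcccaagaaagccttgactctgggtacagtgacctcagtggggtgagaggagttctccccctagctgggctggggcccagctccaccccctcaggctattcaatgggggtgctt
Slc17a7: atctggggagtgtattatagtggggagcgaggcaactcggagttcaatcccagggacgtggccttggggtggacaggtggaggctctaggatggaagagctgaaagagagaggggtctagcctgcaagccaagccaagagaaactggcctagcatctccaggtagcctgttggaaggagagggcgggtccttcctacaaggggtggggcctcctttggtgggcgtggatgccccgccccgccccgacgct
The windows are chr15:103565082-103565331 on the minus strand for Glycam1, chr1:134181906-134182155 on the plus strand for Chil1, chr11:102897201-102897450 on the minus strand for Gfap and chr7:45163671-45163920 on the plus strand for Slc17a7. The motif was found in the Glycam1 window, beginning 145 bases before the start, and in none of the other 3. It occurred in 7.02% of the 32851 RefSeq promoter windows of this length. Of the 12 largest rises by the naming rule given below, 9 had an entry and 3 of these, Glycam1, Casp12 and Gm13293, held the motif. Of the 12 largest falls by that rule, 8 had an entry and 0 held it. The named genes were chosen by their size of change in these data. They were counted by a single window each and the 32851 windows were not reduced in this way, so the shares are not like for like. These matches describe letters in a window, their number was not tested and no binding was measured.

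Against the other 31 libraries of its run, the Ursodiol library had lower neuronal and synaptic transcripts and higher astrocyte, reactive astrocyte and lysosomal transcripts. Transcripts of inhibitory neurons were mostly within the range of the other libraries. Other lists were at the extreme too. Of the 37 list scores, 14 lay above and 7 below those of every other library. Those above included PPAR targets (median log2 fold change 0.71), interferon response (0.65), LXR targets (0.53) and heat shock genes (0.22). Those below included hypoxia response genes (-0.89). In edgeR's quasi-likelihood test, 1779 of 15546 genes (11.4%) passed an adjusted p of 0.05. Of these, 836 rose (5.378% of genes tested) and 943 fell (6.066%). A further measure of the same kind is the number of genes whose CPM lay outside that of every other library of the run. It was 5551 in Ursodiol and 79 to 2408 in the others, with a median of 592, and the range set for each of the others includes Ursodiol. In Ursodiol 2910 of these genes (18.7% of genes tested) were above all others and 2641 (17.0%) were below, and the counts of list members outside the range are set beside these shares. Counts of list members that rose or fell stand beside the 5.378% and 6.066% of all genes that did.

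**Figure D1:**
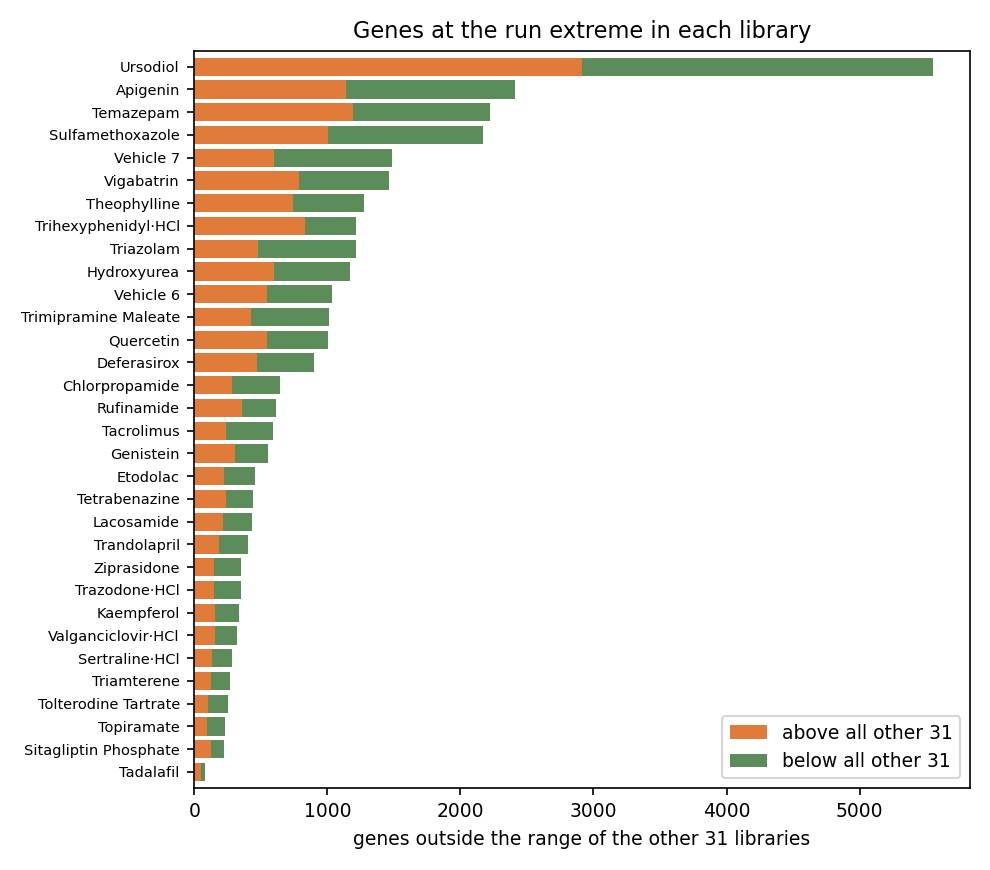
Genes whose CPM lay above (orange) or below (green) that of every other library of the run, for each of the 32 libraries, as stacked bars. Ursodiol had 5551 such genes, and the next library, Apigenin, had 2408.

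Tested in the same way, the other 31 libraries had 0 to 41 called genes each in edgeR, with 57 to 2622 genes at an unadjusted p under 0.05, and 4 of the 31 had any. Quercetin had 41, Theophylline 8, Hydroxyurea 5 and Vigabatrin 2. Each of the other 31 libraries was tested against a set that includes Ursodiol, whose values are part of the spread used there. The counts for Ursodiol and for the others are therefore not on a like scale. The count for Ursodiol depended on the setting. It was 13 without a filter on low counts and 2791 when limma voom was fitted to the whole screen with the run code in the model. Without Trihexyphenidyl·HCl it was 3454, without Hydroxyurea 3022 and without Trimipramine Maleate 2711. Against the 19 others of numbers 1 to 5 it was 4 of 15373 (0.026%), all higher, with 4800 genes at an unadjusted p under 0.05.

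All 12 neuron markers lay below every other library of the run, where 17.0% of all genes did, 9 fell, and their median log2 fold change was -0.64, where the median over all genes tested was -0.01. Rbfox3, which encodes the neuronal nuclear protein NeuN, was at 100 CPM in Ursodiol and at 117 to 202 CPM in the others (median 168). Snap25, a SNARE protein of vesicle fusion, was at 613 CPM against 680 to 1154 CPM. Map2, a dendritic microtubule protein, was also below all others, at 1412 CPM against 1478 to 1935 CPM, and did not pass.

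Markers of excitatory neurons were lower by a median of 0.78 on the log2 scale, and 3 of 8 fell. Slc17a7 (chr7:45163949-45176142) was at 364 CPM in Ursodiol. It was at 424 to 895 CPM (median 718) in the 19 others of numbers 1 to 5 and at 639 to 918 CPM (median 820) in the 12 of numbers 6 to 8. The 2 vehicles of the run were at 895 and 899 CPM, near the top of the run. The log2 fold change of Slc17a7 was -1.04 ± 0.29 (SE). Camk2a, the calcium-dependent kinase of excitatory synapses, changed by -0.93 ± 0.26. Slc17a6, the related transporter VGLUT2, was within the range of the others at 21.6 CPM against 17.5 to 28.8 CPM.

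Inhibitory neuron markers did not follow. Their median log2 fold change was -0.08 and 1 of 12, Vip, fell. Gad1 and Gad2, the enzymes that make GABA, were at 543 CPM against 486 to 695 CPM and at 441 CPM against 407 to 581 CPM, both inside the range of the others. Vip, a neuropeptide of one class of interneurons, was at 7.26 CPM. The 19 others of numbers 1 to 5 had 11.2 to 26.9 CPM and the 12 of numbers 6 to 8 had 20.4 to 39.2 CPM, so Ursodiol lay below both sets. Npy, the neuropeptide of another class, was above all others at 62.7 CPM against 38.9 to 60.8 CPM, and did not pass. The excitatory score minus the inhibitory score was -0.67 in Ursodiol, rank 3 of 32 from the lowest, with -0.77 in Hydroxyurea.

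Synaptic genes were lower with the neuron markers. Of 16 genes of synaptic vesicles and release, 13 fell and 15 lay below every other library (17.0% of all genes), with a median log2 fold change of -0.61. Syn1, which tethers synaptic vesicles, was at 406 CPM against 453 to 734 CPM. Of 17 glutamate and GABA receptor subunits, 6 fell, among them Gria3, Grin1, Grin2a, Gabra3 and Gabrb2, and 12 lay below all others (17.0% of all genes). Grin1, the obligatory NMDA receptor subunit, changed by -0.61 ± 0.17. Gria1 and Gabrb1 were within the range of the others.

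**Figure D2:**
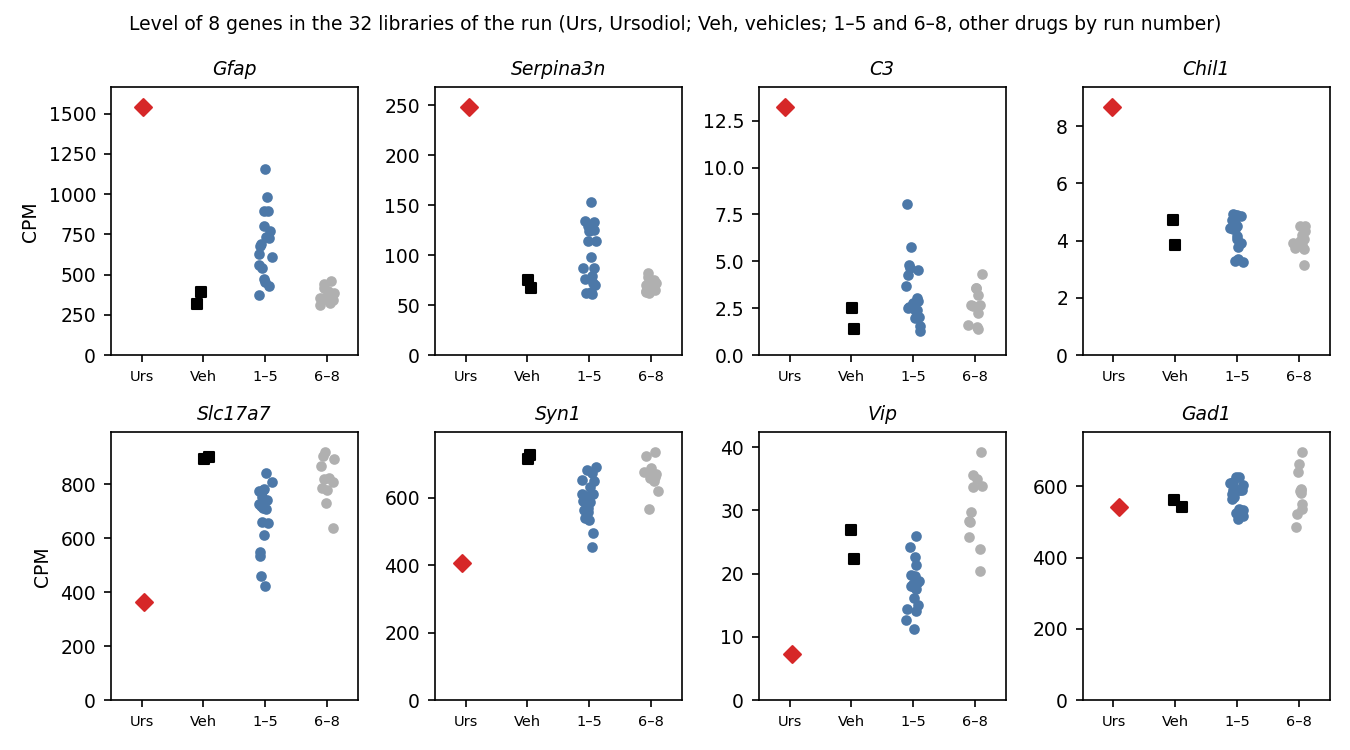
CPM of 8 genes in the 32 libraries of the run. Each point is a library, red is Ursodiol, black squares are Vehicles 6 and 7, and blue and grey are other drugs of run numbers 1 to 5 and 6 to 8. Gfap, Serpina3n, C3 and Chil1 were highest in Ursodiol, Slc17a7, Syn1 and Vip were lowest, and Gad1 was within the range.

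Astrocyte markers were unequal in Ursodiol. Of 12, 9 lay above every other library, where 18.7% of all genes did, and 3 rose (Gfap, Aldh1l1 and Atp1b2), with a median log2 fold change of 0.49. Gfap (chr11:102887336-102900912) was at 1539 CPM, against 374 to 1156 CPM in the 19 others of numbers 1 to 5 and 313 to 460 CPM in the 12 of numbers 6 to 8. Its log2 fold change was 1.46 ± 0.45. The water channel Aqp4 (1.29 ± 0.54) and the gap junction gene Gja1 (1.107 ± 0.39) had values of similar size and did not pass. Aldh1l1, an enzyme of folate metabolism used as a general astrocyte marker, had 0.37 ± 0.12. Slc1a2, the main glutamate transporter of astrocytes, had -0.43 ± 0.24 and was inside the range of the others, at 1937 CPM against 1911 to 3284 CPM.

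Genes of reactive astrocytes had the highest median of the 37 lists, 1.182 on the log2 scale. Of 12, 6 rose (Vim, Serpina3n, Steap4, Osmr, S1pr3 and Aspg) and 9 lay above all others, against 18.7% of all genes. Serpina3n, a secreted protease inhibitor, was at 248 CPM against 61.2 to 153 CPM in the others. Vim, an intermediate filament, was at 1379 CPM against 308 to 948 CPM. Osmr, the oncostatin M receptor subunit, was at 103 CPM against 27.3 to 72.6 CPM. Lcn2, Cxcl10 and Cd14 were under 2 CPM in Ursodiol and within the range of the others.

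Lysosomal genes rose in 7 of 15, among them Lamp1, Lamp2, Ctsb, Ctsd, Ctsl and Tfeb, and 11 lay above all others (18.7% of all genes), with a median of 0.37. Lamp2, a lysosomal membrane protein, was at 361 CPM against 144 to 304 CPM. Tfeb, a transcription factor of lysosomal genes, was at 16.6 CPM against 6.02 to 14.1 CPM. Of 12 genes of NF-kB inflammation, Icam1, Vcam1 and C3 rose. C3, complement component 3, was at 13.2 CPM against 1.27 to 8.09 CPM. The 10 p53 targets had a median of 0.45, with values from -1.04 to 0.73. Of them, 5 lay above all others (18.7% of all genes) and 1 below (17.0%). Ccng1, Phlda3 and Aen had 0.49 to 0.61 on the log2 scale. The 16 BCL2 family genes and caspases had a median of 0.14, with values from -0.74 to 0.57. Of them, 6 lay above all others (18.7% of all genes) and 1 below (17.0%). The cell death effectors Bax and Bak1 had 0.34 ± 0.09 and 0.35 ± 0.12, and the survival gene Bcl2l2 had -0.38 ± 0.12. These genes are examples from a list whose values ran in both directions, and they do not describe it as a whole.

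Genes of the drug's own metabolism had 1 call, and their score was near the top of the run. Of 22 bile acid receptors, transporters and enzymes, 9 passed the filter on low counts. Of these 9, 3 lay above all others (18.7% of all genes) and 1 below (17.0%). The list score was 0.33 in Ursodiol, rank 2 of 32 from the highest, and -0.35 to 0.37 in the others. The FXR gene Nr1h4 had 0 counts in Ursodiol and at most 0.0457 CPM in the others, and the TGR5 gene Gpbar1 had 0.0318 CPM against 0 to 0.114 CPM. Cyp46a1, the neuronal cholesterol 24-hydroxylase, was the 1 gene of the list that passed, with a fall of 0.54 ± 0.17 on the log2 scale, and was below all others at 112 CPM against 129 to 193 CPM. Cyp7b1, an oxysterol hydroxylase, was above all others at 27.6 CPM against 9.03 to 24.5 CPM, and did not pass.

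Genes of cholesterol synthesis had a median log2 fold change of -1.02. Of 20, 2 fell, among them Idi1, where 6.066% of all genes fell. In all, 12 of the 20 lay below all others, where 17.0% of all genes did. Hmgcs1, which acts early in the pathway, was at 264 CPM against 301 to 1065 CPM and did not pass. Idi1 was at 0.223 CPM against 0.503 to 2.01 CPM, and its value is uncertain because it has near-identical copies among which reads could be divided. The activity-regulated genes, transcription factors and effectors switched on by neuronal firing, had a median of -1.34 over 25 genes. Of these 25, 0 passed and 1 lay below all others. The score of this list varied widely in the run, from -1.71 in Triazolam to 1.72 in Theophylline, and Ursodiol had -0.92.

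By the naming rule, the 12 largest rises had log2 fold changes of 1.779 to 2.812 and the 12 largest falls -2.35 to -1.43. The rises were Glycam1, Plscr2, A2m, Gbp2, Mboat1, Casp12, C3, Lrp2, Fam46c, Gm13293, S1pr3 and Rab7b. A2m encodes the protease inhibitor alpha-2-macroglobulin, Gbp2 an interferon-inducible GTPase, Casp12 a caspase, Lrp2 the endocytic receptor megalin and S1pr3 a sphingosine-1-phosphate receptor. Glycam1 (chr15:103562759-103565081) was at 44.3 CPM in Ursodiol against 0.916 to 24.1 CPM in the other 31 and 0.919 to 16.2 CPM in the 9 vehicles. A2m was at 684 CPM against 37.1 to 346 CPM. For 10 of the 12 rises the next-highest library was Trihexyphenidyl·HCl, and for the other 2 it was Trimipramine Maleate.

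The falls were Idi1, Twist1, Col6a4, BC024139, A830029E22Rik, Gm28928, Prss35, Plcxd1, Vip, Ccdc155, Foxr2 and Aldh3b2. Of these, 10 were under 1 CPM in Ursodiol, so their values rest on few counts. Prss35, a serine protease family gene, was at 6.81 CPM against 8.74 to 31.9 CPM in the run. The 9 vehicles had 5.67 to 27.3 CPM of Prss35, so Ursodiol was within their range. The next-lowest library of the run was Trihexyphenidyl·HCl for 7 of the 12 falls and Hydroxyurea for 2. For Ccdc155 it was Trazodone·HCl and for Foxr2 it was Trandolapril.

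Trihexyphenidyl·HCl and Hydroxyurea also had the neuron scores nearest to that of Ursodiol. The neuron score, from neuron and excitatory neuron markers, was -0.66 in Ursodiol and -0.50 to 0.23 in the others. The astrocyte score was 0.67 and -0.27 to 0.54. The score of fibroblast and mural markers was 0.47 and at most 0.42 in the others. Its parts differed. The mural score was 1.1749 in Ursodiol and -0.85 to 0.53 in the others, with the smooth muscle gene Tagln the 1 mural marker that rose, at 5.86 CPM against 0.668 to 4.115 CPM. The fibroblast score was rank 16 of 32 in Ursodiol and 0 of 10 fibroblast markers passed. The score of the oligodendrocyte lineage, -0.25, was inside the range of the others. Trihexyphenidyl·HCl (-0.50), Hydroxyurea (-0.47), Lacosamide (-0.33), Trimipramine Maleate (-0.28) and Triazolam (-0.27) had the next-lowest neuron scores. Lacosamide was next to Ursodiol in 0 of the 24 named genes, and Trazodone·HCl and Trandolapril, each next in 1, had neuron scores of -0.07 and -0.02. The last numbers of the library labels were 167 to 170 for Triazolam, Trihexyphenidyl·HCl, Trimipramine Maleate and Ursodiol, and 176 and 177 for Hydroxyurea and Lacosamide. The sources used here do not say what these numbers stand for. Whether these numbers bear on the result was not tested.

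**Figure D3:**
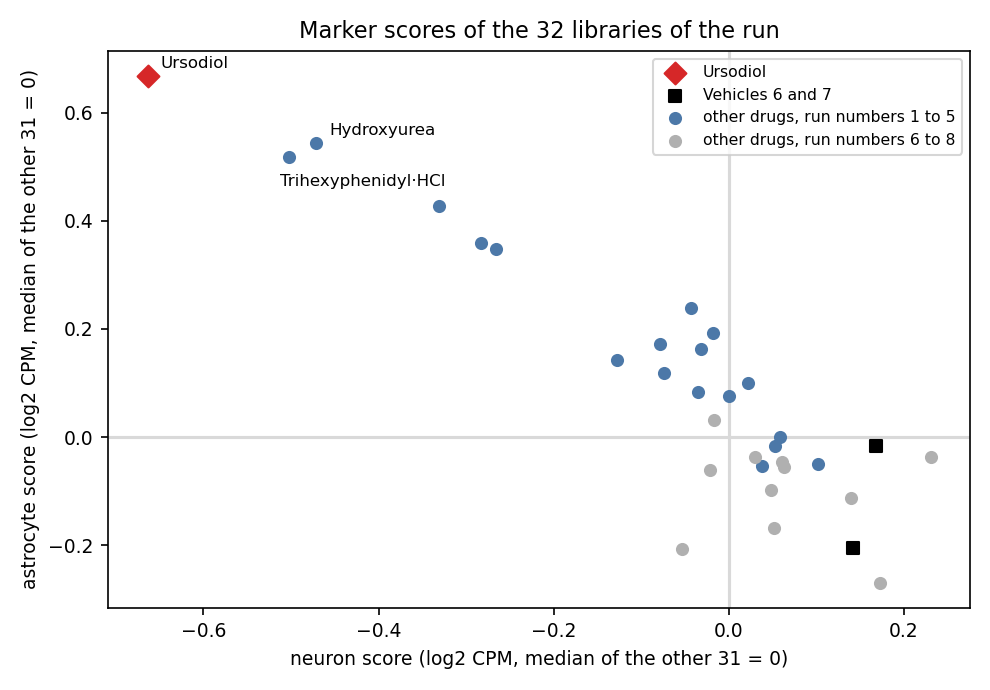
Neuron score (horizontal) against astrocyte score (vertical) of the 32 libraries, each a mean log2 CPM of markers set to 0 at the median of the other 31. Ursodiol lies at -0.66 and 0.67, at the end of a line formed by the blue libraries of run numbers 1 to 5.

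Among the 19 other libraries of numbers 1 to 5 the astrocyte, lysosomal, reactive astrocyte and cholesterol synthesis scores each had a relation to the neuron score that passed, and the inhibitory neuron and activity-regulated scores had none that did. The permutations treat these libraries as exchangeable, though several with low neuron scores had neighbouring label numbers. All scores come from shares of the same library total, so opposite movement can be in part built in. The neuron score had a Pearson r of -0.96 with the astrocyte score (Spearman rho -0.91, permutation p = 1e-05 for both, the smallest that 100000 permutations can give; adjusted p = 7e-05 and 7e-05 over 14 relations). Without the 2 libraries farthest in neuron score r was -0.92. The lysosomal score had r = -0.96 and rho = -0.92 with it (permutation p = 1e-05 and 1e-05, adjusted 7e-05 and 7e-05, r = -0.94 without the 2 farthest). The reactive astrocyte score had r = -0.64 and rho = -0.73 with it (permutation p = 0.00278 and 0.00048, adjusted 0.00778 and 0.00134, r = -0.55 without the 2 farthest). The cholesterol synthesis score had r = 0.79 and rho = 0.74 with it (permutation p = 7e-05 and 0.0004, adjusted 0.000245 and 0.00134, r = 0.69 without the 2 farthest). The inhibitory neuron score had r = -0.49 and rho = -0.38 with it (permutation p = 0.0335 and 0.105, adjusted 0.067 and 0.179, r = -0.25 without the 2 farthest). The activity-regulated score had r = 0.40 and rho = 0.40 with it (permutation p = 0.0881 and 0.0929, adjusted 0.154 and 0.179, r = 0.35 without the 2 farthest). In the 12 libraries of numbers 6 to 8 the neuron and astrocyte scores had r = -0.23 (rho -0.11, permutation p = 0.466 and 0.732, adjusted 0.544 and 0.788, r = -0.25 without the 2 farthest). There the neuron score spanned -0.05 to 0.23 only. The lysosomal and reactive astrocyte relations were of the opposite sign in that set and did not pass. The inhibitory neuron relation did not pass there either (r = -0.39, and r = -0.73 without the 2 farthest). The cholesterol synthesis score passed there too, with r = 0.66 and rho = 0.71 with the neuron score (permutation p = 0.0182 and 0.0128, adjusted 0.0425 and 0.0299, r = 0.63 without the 2 farthest). There the activity-regulated score had r = 0.92 and rho = 0.93 with it (permutation p = 3e-05 and 3e-05, adjusted 0.00014 and 0.00014, r = 0.86 without the 2 farthest). In numbers 1 to 5 library depth had r = 0.13 and rho = 0.23 with it (permutation p = 0.575 and 0.349, adjusted 0.575 and 0.481, r = 0.20 without the 2 farthest).

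When the 4 marker scores were added to the model, 0 of 15481 genes (0%) passed in edgeR, with 897 at an unadjusted p under 0.05 and a lowest adjusted p of 0.541. DESeq2 with the same scores also called 0, with 827 at an unadjusted p under 0.05. The 65 scored markers are left out of these counts. Over all genes tested, the median absolute log2 fold change was 0.259 without and 0.0996 with the scores, and the median SE was 0.165 and 0.125. Among the 1779 genes called against the run it was 0.538 and 0.0973, and a smaller value there is in part fixed by having chosen genes with a large difference without the scores. Ursodiol lay outside the other libraries on 3 of the 4 scores, so its value with the scores is an extrapolation. A change in these markers within cells would be removed in the same way as a change in cell numbers, and these cannot be told apart here.

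**Figure D4:**
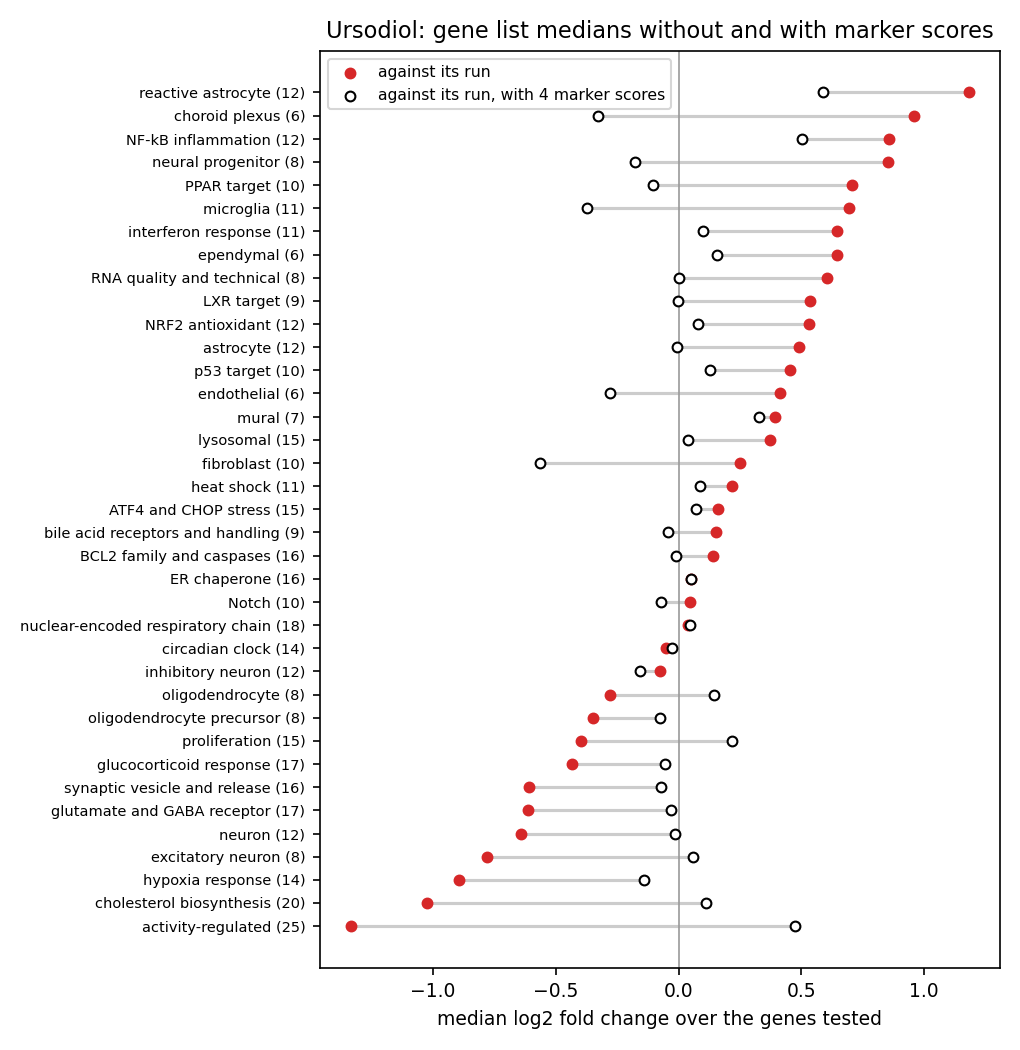
Median log2 fold change of each gene list in Ursodiol against its run (red) and with the 4 marker scores in the model (open), with the number of genes tested in brackets. The synaptic list moved from -0.61 to -0.07 and the reactive astrocyte list from 1.182 to 0.59.

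Of the 37 lists, 32 had a median nearer to 0 with the scores. Medians of the scored neuron, astrocyte and oligodendrocyte lineage lists were brought towards 0 by construction. Of the lists in the combined fibroblast and mural score, the mural median went from 0.39 to 0.33. The fibroblast median went from 0.25 to -0.57, farther from 0. Lists outside the scores moved too, synaptic vesicle genes from -0.61 to -0.07, receptor subunits from -0.61 to -0.03, lysosomal genes from 0.37 to 0.04 and cholesterol genes from -1.02 to 0.11. The median of the BCL2 family genes and caspases went from 0.14 to -0.01. The reactive astrocyte list kept 0.59 of 1.182 and the NF-kB list 0.50 of 0.86, and 0 of their genes passed. The activity-regulated list turned from -1.34 to 0.47.

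The genes of the naming rule were chosen for the size of their difference without the scores, so a smaller value with them is in part fixed by that choice. Glycam1 went from 2.812 ± 0.82 to 0.16 ± 0.37, A2m from 2.51 ± 0.76 to 0.10 ± 0.43 and Gfap from 1.46 ± 0.45 to 0.09 ± 0.17. C3 kept 1.04 ± 0.50 and Fam46c 0.76 ± 0.31. Rab7b, a small GTPase of endosomes, changed sign, to -0.06 ± 0.22.

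**Figure D5:**
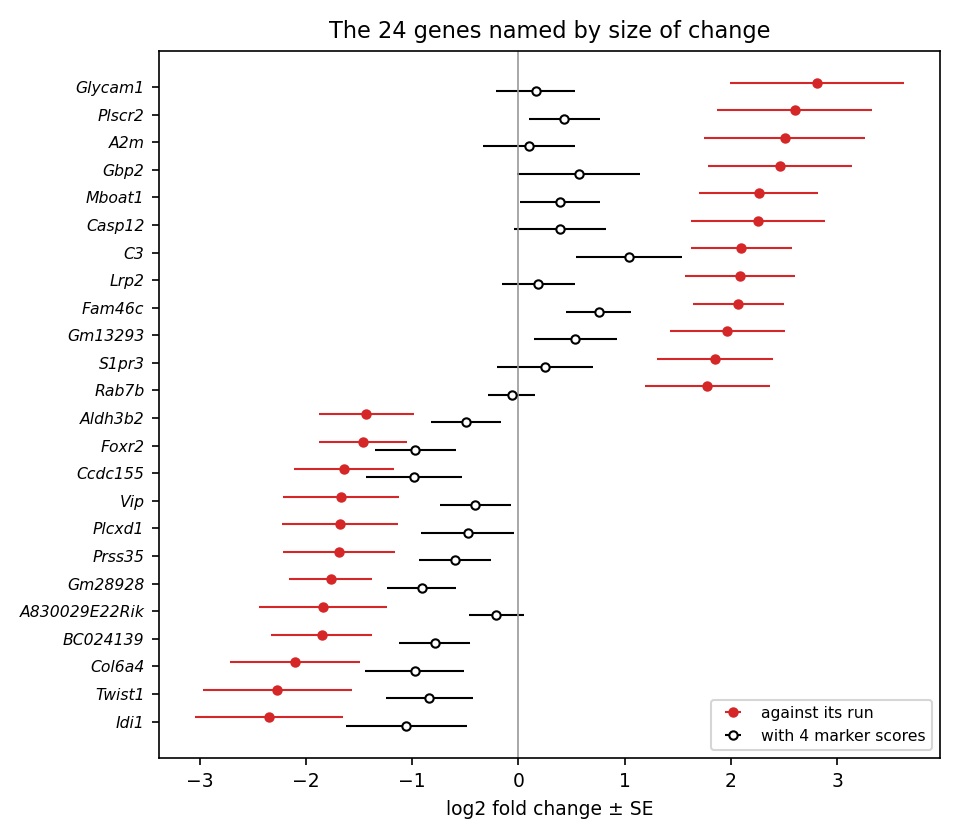
Log2 fold change of the 24 named genes in Ursodiol against its run (red) and with the 4 marker scores (open), with SE bars. The 12 rises lie between 1.779 and 2.812 without the scores and between -0.06 and 1.04 with them.

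Because 0 genes passed with the scores, the genes with the largest remaining differences at an unadjusted p under 0.05 are given as values. The higher ones were Acta2, Tagln, C3, Fgf2, Chil1, Fam46c, Serpina3n, Itga7, Gfra1, Pdia5, Chrdl1 and Slc39a14, at 0.53 to 2.1613. Acta2 and Tagln, smooth muscle proteins, were among the scored markers. Chil1 (chr1:134182176-134190181) had the smallest relative error. It was at 8.66 CPM in Ursodiol, at 3.24 to 4.93 CPM in the 19 others of numbers 1 to 5, at 3.1623 to 4.71 CPM in the 12 of numbers 6 to 8 and at 3.58 to 4.98 CPM in the 9 vehicles. These 3 sets overlapped with each other and none reached the Ursodiol value. The log2 difference of Chil1 was 1.03 ± 0.16 against the run and 0.76 ± 0.17 with the scores. Gfra1, a receptor for GDNF, was at 95.6 CPM against 44.0 to 70.7 CPM in the run, with 0.79 ± 0.16 and 0.60 ± 0.17. Itga7, a laminin-binding integrin, was at 19.7 CPM against 4.72 to 12.3 CPM, with 1.35 ± 0.29 and 0.70 ± 0.25.

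The lower ones included Hapln3, Irf8, Ccdc155, Col6a4, Foxr2, Gm28928, Gm1840, 4930507D05Rik, BC024139, 2410018L13Rik and Gm10642. The 12 genes of this direction had values of -1.30 to -0.74, and 11 of them were under 1 CPM in Ursodiol. The lowest value was that of Hapln3, a hyaluronan-binding link protein, at 0.669 CPM against 0.957 to 2.01 CPM.

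Against the 9 vehicles, of which Vehicles 6 and 7 are also part of the run comparison, the cell type and reactive astrocyte lists named above had medians of -0.63 for neuron markers, -0.66 for excitatory neurons, -0.05 for inhibitory neurons, 0.45 for astrocytes and 1.159 for reactive astrocyte genes. Other lists differed more between the comparisons. The p53 targets had 0.26 against the vehicles and 0.45 against the run, and the mural markers 0.25 and 0.39. The microglial markers, near 0 CPM throughout, turned from 0.69 against the run to -0.24 against the vehicles. In edgeR 0 of 15418 genes (0%) passed, with 2520 at an unadjusted p under 0.05 and a lowest adjusted p of 0.304. DESeq2 called 19, of which 6 were higher, and edgeR without Vehicle 1 called 3. The median SE was 0.186, against 0.165 in the run comparison. The labels do not say whether the vehicle libraries came from separate cultures, so the spread between them may be technical.

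The 4 genes that passed against the 19 others of numbers 1 to 5 were Chil1, Gna14, Gm10800 and A730049H05Rik. Chil1 had a log2 fold change of 1.00 ± 0.17. Gna14, a G protein alpha subunit, was at 0.891 CPM against 0.0606 to 0.395 CPM. The other 2 were also under 1.2 CPM, and Gm10800 is a predicted gene. In this comparison the median was -0.56 for neuron markers, 0.44 for astrocyte markers and 1.03 for reactive astrocyte genes. It was -0.72 for excitatory neuron markers, -0.53 for synaptic vesicle genes, -0.53 for receptor subunits, 0.36 for lysosomal genes, -0.81 for cholesterol synthesis and -0.95 for activity-regulated genes. These medians were on the same side of 0 as those against the whole run. Log2 fold changes against these 19 were -0.65 for Rbfox3, -0.57 for Snap25, -0.82 for Camk2a and -0.57 for Syn1. They were 1.336 for Serpina3n, 1.23 for Vim, 1.01 for Osmr, 0.75 for Lamp2, 0.78 for Tfeb, 1.99 for C3 and 2.04 for A2m.

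Over all libraries of the screen, with scores set to 0 at the median of each run code, Ursodiol ranked 3 from the lowest in neuron score and highest in astrocyte score. Its astrocyte minus neuron score was 1.36, second to Naloxone·HCl at 1.4002 and before Duloxetine·HCl at 1.23. The 9 vehicles spanned -0.64 to 0.39. Gfap, Glycam1 and Chil1 had their highest CPM of the whole screen in Ursodiol. Slc17a7 ranked 204 from the highest and Vip 222.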

How the data were processed

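RNA was prepared with a stranded mRNA kit, per the labels' protocols. The authors deposited whole-number read counts per Ensembl gene, which are not normalized; per the submitters' processing notes the build was mm10 and the tools were limma, edgeR 3.10.5, Subread 1.4.6 and STAR 2.4.0, with no roles given. The deposited RPKM values were not used.

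Counts were analysed in R 4.3.3 with edgeR 4.0.16 (TMM factors, default low-count filter, quasi-likelihood test, Benjamini-Hochberg adjusted p under 0.05) as 1 library against 31, 9 or 19, without and with 4 marker scores. With a single Ursodiol library, the error rests on the spread among the comparison libraries. The SE is the log2 fold change divided by the square root of F. Scores are mean log2 CPM (prior count 1) of markers with a mean CPM of 1 or more. Named genes were up to 12 per direction by log2 fold change past the threshold, or by unadjusted p under 0.05 where none passed, with an average of at least 1 CPM over the run and an Ursodiol CPM beyond all 31 others, plus members of 37 lists. Members, lists and tests were chosen with earlier results of these data known. The models were run on simulated data, built without the marker scores or from the same 4 scores. Such data cannot test whether the scores hold for the extrapolated Ursodiol value. Gene positions are from GENCODE vM21 (GRCm38), where all 507 genes looked up were found. No 2 libraries of the run agreed within sampling noise (lowest chi-square per gene 3.78 over 496 pairs). Alternatives were RLE factors, DESeq2 1.42.0, limma 3.58.1, other filters, run code terms and leaving out libraries; comparison with numbers 1 to 5, DESeq2 with scores and a single astrocyte minus neuron score were chosen after seeing the data. A few named genes and list members are not reported here.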

Additional observations from a re-analysis of the deposited data

Results flagged for a closer look

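Among the 9 vehicles, Vehicle 1 stood apart from the other 8 in 2 of the genes named for Ursodiol. Gbp2 was at 10.7 CPM in Vehicle 1, and the next vehicle had 4.81 CPM. Mboat1 was at 3 CPM, and the next vehicle had 1.621 CPM. In both genes Ursodiol was higher still, at 21.6 and 5.35 CPM. In all, 37 sets of vehicle values were examined, and chance alone singles out about 1 in 20 sets.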

How the results depend on the processing

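Against its run, the number of genes called for Ursodiol was 13 without a low-count filter, 2791 with limma voom over the whole screen (60.1% higher, against 47.0% in the run comparison), and 4 among run numbers 1 to 5. It was 1224 to 3454 on leaving out each other library in turn. RLE factors, DESeq2, a stricter filter, edgeR over the whole screen, and leaving out the 3 libraries of its run number, 2 drugs or both vehicles gave 1236 to 2659. Against the vehicles, DESeq2 called 19 where edgeR called 0, and leaving out each vehicle gave 0 to 3. With marker scores the count was 0 in all 8 alternatives and on leaving out each of the 31 libraries. The log2 fold change of Rab7b turned to -0.064 with the scores. The cause of these differences was not tested. The comparison within numbers 1 to 5 used 19 other libraries in place of 31. Its median SE was 0.147, against 0.165 for the whole run. No paired analysis was possible because each drug has 1 library and the drug libraries carry no replicate number. With 1 library, the spread between Ursodiol cultures is unknown, and genes under 1 CPM rest on few counts.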

Other observations

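The summed CPM of markers of ventricular lining and choroid plexus was highest of the run in Ursodiol, though not every marker was. The summed CPM of 6 choroid plexus markers was 44.4 in Ursodiol and 1.67 to 31.3 in the others (median 5.86). Most of it was Ttr, the thyroid hormone carrier transthyretin, at 39.6 CPM against 0 to 27.1 CPM. The summed CPM of ependymal markers was 72.6 against 14.4 to 59.5, most of it Foxj1, a transcription factor of ciliated cells, at 64.9 CPM. Of 6 choroid plexus markers tested 4 lay above all others (18.7% of all genes). Kl lay below (17.0% of all genes), at 0.414 CPM against 0.448 to 1.111 CPM. Of 6 ependymal markers tested 2 lay above all others (18.7% of all genes), and the lowest log2 fold change was -1.12, in Ccdc153, within the range of the others. None of the genes of these 2 lists passed against the run in edgeR. Microglial markers were near 0 in every library, with a summed CPM of 5.99 in Ursodiol and 3.71 to 8.69 in the others.

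Of 8 neural progenitor markers, 6 lay above every other library (18.7% of all genes) and 1 below (17.0%), with a median log2 fold change of 0.85. Their score was the highest of the run, 0.77 against -0.49 to 0.71. Among them 1 rose and 1 fell. Prom1, a membrane glycoprotein of progenitors and astrocytes, rose and was at 45.1 CPM, where the other 31 had 9.74 to 35.6 CPM. Hes5, a Notch target, fell and was at 3.92 CPM, where the others had 5.65 to 9.60 CPM. With the 4 marker scores the log2 differences were -0.03 for Prom1 and -0.40 for Hes5.

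Within the whole screen Ursodiol was not the only one with high reactive astrocyte transcripts. Serpina3n was at 249 CPM in Ursodiol on the scale of all libraries, second to Bumetanide at 253 CPM. C3 had rank 5, with 13.3 CPM against a highest value of 17.3 CPM in Oxaprozin. Chil1 was at 8.71 CPM in Ursodiol, and the highest of the other 226 libraries was Fenofibrate at 6.861 CPM.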
